A study of Arabidopsis thaliana with 7 samples.

Results

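In developing seeds of Arabidopsis thaliana, 37 probe sets, which name 36 genes, gave signals at least 2-fold higher in 4 of 7 arrays than in the other 3. They were chosen by their measured values from 13513 probe sets that each name 1 gene. A probe set was taken where the lowest signal of wild-type replicates 3 and 4 and myb5 replicates 2 and 3 was at least 2 times the highest signal of the remaining arrays (replicates 1 and 2 of wild type, replicate 1 of myb5), and was itself at least 100. Below, the first set is called the 4 high arrays and the second the 3 low arrays. Values are given in a fixed order: for the low arrays wild type 1, wild type 2 and myb5 1, and for the high arrays wild type 3, wild type 4, myb5 2 and myb5 3. DFR, BAN, PMEI14 and organelle-encoded genes were to be left out, and 0 further probe sets met the rule among them. The rule kept 37 of 13513 probe sets (0.274%), and nothing is read from that share. The direction and size of the difference between the 2 sets of arrays are what chose these transcripts, so they are described here without a test.

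The study measured RNA of dissected seeds from wild-type plants of the Col accession (4 arrays) and from plants with the myb5-1 allele (3 arrays), grown together on soil in constant light. No further allele, treatment or plant age is given in the labels, and the whole seeds hold embryo, endosperm and maternal seed coat. Embryos ranged from globular to walking-stick stage in both genotypes, and each sample is a biological replicate per the series design text. MYB5 is a transcription factor known from seed coat mucilage and tannin formation.

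A seed of Arabidopsis grows around an embryo and a nourishing endosperm inside a coat made by the mother plant. While the embryo is small, the innermost coat layer makes flavonoids, which polymerise into the tannins that later brown the seed. As the embryo fills the seed, it greens and begins to store oil and protein. Whole-seed RNA mixes these tissues, so fewer cells of a type and less RNA per cell cannot be told apart in any value below.

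The sets of arrays were not known from the labels: all 7 samples carry the same description of stage. The 4 high arrays were of both genotypes, 2 of 4 wild-type and 2 of 3 myb5 samples. Median signals over all probe sets ran from 49.2 to 54.6. The 5'/3' signal ratio of a GAPDH control pair, a measure of how far labelled RNA reaches from the 3' end, was 0.081 to 0.093 in the 4 high arrays and 0.156 to 0.208 in the 3 low arrays. The other 5 control pairs overlapped between the sets. The 10 nuclear photosynthesis probe sets summed to 5631 to 7257 in the 4 high arrays and to 11783 to 14724 in the 3 low arrays, and 9 of the 10 were higher in all 3 low arrays. The 6 late maturation probe sets summed to 1594 to 2504 and to 6296 to 8620, and 4 of the 6 were higher in all 3 low arrays. Sums that did not overlap were not particular to these lists and went both ways. The 5 reference gene probe sets summed to 4007 to 4985 and to 5342 to 5986. The 42 probe sets for proteases and protease inhibitors summed to 29182 to 31358 and to 24990 to 27080. Sums of further lists, such as that for transcription factors, overlapped. Over all probe sets naming 1 gene, 8.55% were higher in all 3 low arrays and 14.8% in all 4 high arrays. The part of RNA quality, stage or tissue in the values below was not tested.

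The transcripts were proposed as early-like, and the markers measured do not settle that name. Of 10 embryo markers 1 was measured, CLV3, at signals of 1.17 to 7.54, and of 10 endosperm markers 2 were measured. AGL62, which times endosperm cellularization, lay at 0.262 to 9.74 and IKU2, a receptor kinase of endosperm growth, at 2.75 to 17.8, near the bottom of the scale in every array. Over all probe sets naming 1 gene, 14.8% were higher in all 4 high arrays and 8.55% in all 3 low arrays. Of 9 probe sets for mitosis and cytokinesis genes, 0 were higher in all 4 high arrays and 2 were higher in all 3 low arrays. Of 11 probe sets for DNA replication and histone genes, 5 were higher in all 4 high arrays and 0 were higher in all 3 low arrays. The 5 were ICU2, a DNA polymerase alpha subunit gene, PRL, a replication licensing gene, and the histone H2B genes HTB1, HTB2 and HTB11, with ratios of means of 1.65, 1.42, 1.52, 1.65 and 1.23. A signal of at least 100 in all 4 high arrays was reached by 2 of the 9 and 7 of the 11. The mitosis list summed to 673 to 998 in the 4 high arrays and to 1022 to 1219 in the 3 low arrays. The DNA replication list summed to 4847 to 5347 and to 4115 to 5126, which overlap. Median ratios of means were 0.88 for mitosis and 1.09 for DNA replication, against 1.08 over all probe sets naming 1 gene. Of 9 seed coat markers 2 were measured, and BAN, the anthocyanidin reductase of tannin synthesis, read 2684, 2996 and 3424 in the 3 low arrays and 6754, 4681, 6533 and 5881 in the 4 high arrays. PER36, a peroxidase gene of mucilage cells, read 729, 834 and 900.3 in the 3 low arrays and 260.2 to 1026 in the 4 high arrays, which overlap. The green tissue marker RCA, 1 measured of 4, lay at 473 to 573 in the 3 low arrays and 145 to 249 in the 4 high arrays. The fruit wall marker ALC, 1 measured of 8 for other tissues, lay at 49.3 to 70.9 in the 3 low arrays and 78.1 to 119.7 in the 4 high arrays, and the part of silique tissue was not tested. The set is therefore called by its rule.

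Over the 37 probe sets, the ratio of the lowest high array to the highest low array had a median of 2.28 and ran from 2.04 to 3.95. The ratio of the mean of the 4 high arrays to the mean of the 3 low arrays had a median of 3.43 and ran from 2.49 to 6.46. The lowest signal among the 4 high arrays ran from 108 to 2882; it was at least 1000 for 11 probe sets and under 200 for 12. Most of the set lay close to the threshold, with 25 ratios under 2.5 and 4 of at least 3. Just inside were AT2G03980, AT2G45840 and AT5G47350 at ratios of 2.04, 2.05 and 2.05. AT4G13840, AT5G11360 and AT1G11590 lay just outside at 1.99, 1.97 and 1.94, so no gap in the data marks the edge. On the signal threshold, AT2G45860, AT1G22330 and AT2G45840 were just inside at lowest signals of 108.2, 110.0 and 112. VDD, AT5G46300 and AT3G52740 were the nearest outside, at 72.1, 71.9 and 70.3, among 36 probe sets that passed the ratio alone.

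**Figure D1:**
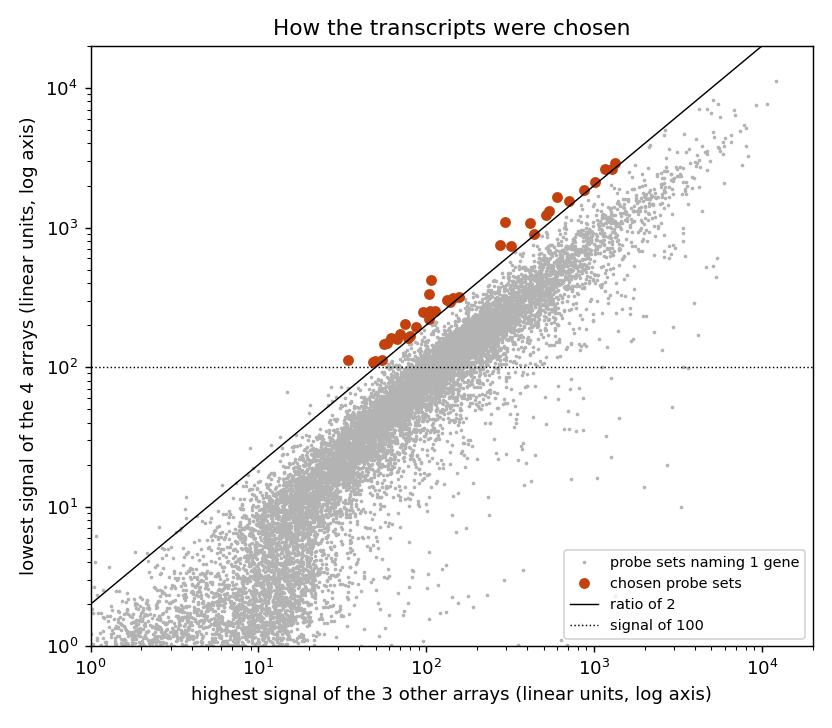
Each point is a probe set naming 1 gene, placed by the highest signal of the 3 low arrays and the lowest signal of the 4 high arrays (linear units, both axes logarithmic, signals under 1 not drawn). The 37 chosen probe sets lie above the line for a ratio of 2 and the line for a signal of 100, most of them close to the ratio line.

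Only 2 of the 37 probe sets name a gene with a symbol, CHIL and THI2.1; the other 35 name genes known here by locus tag alone, for which no role is given. CHIL encodes a chalcone isomerase-like protein that has no isomerase activity of its own and raises flavonoid production in Arabidopsis. Its signals were 802, 834 and 867 in the 3 low arrays, and 2135, 1869.6, 2168 and 2133 in the 4 high arrays. The 3 low arrays sat within 802 to 867 and the 4 high arrays within 1869.6 to 2168, and the ratio of means was 2.49, the smallest of the 37. By genotype its signal was 1410.1 ± 693 over 4 wild-type arrays (SD) against 1722 ± 741 over 3 myb5 arrays (SD), and each genotype holds arrays of both sides. The log2 difference, myb5 minus wild type on quantile-normalized log2(signal + 16), came to 0.34 ± 0.49 (standard error; limma adjusted p = 1.00).

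The flavonoid list had 6 measured probe sets; BAN, whose symbol the list did not match, is not among them and was given above with the seed coat markers. Of these 3 were higher in all 4 high arrays and 2 were higher in all 3 low arrays, against 14.8% and 8.55% of all probe sets naming 1 gene. DFR, which makes leucoanthocyanidins ahead of the tannin branch, read 1559, 2143 and 1383 in the 3 low arrays, and 5381, 3906, 3939.5 and 4549 in the 4 high arrays, a lowest-to-highest ratio of 1.82 that missed the rule. UGT78D1, a flavonol glycosyltransferase gene, read 1414, 1384 and 1534 in the 3 low arrays, and 1588, 2128, 1653 and 1746 in the 4 high arrays, a ratio of 1.04. CHIL, itself 1 of the 3, was chosen for that order. The opposite order held for 2 other sugar-transfer genes. UGT78D2, a flavonoid 3-O-glucosyltransferase gene, read 141, 147 and 160.3 in the 3 low arrays, and 62.5, 87.3, 90.1 and 55.6 in the 4 high arrays. UF3GT, also known as UGT79B1 and acting on anthocyanins, read 105, 67.1 and 139 in the 3 low arrays, and 33.8, 34.2, 39.2 and 34.7 in the 4 high arrays. UGT80B1, a sterol glucosyltransferase gene of the seed coat, overlapped between the sets at 217, 193 and 223 in the 3 low arrays, and 257, 216, 242 and 231 in the 4 high arrays. CHIL, DFR and UGT78D1 thus lay on one side of the split, UGT78D2 and UF3GT on the other, and UGT80B1 overlapped. The sugar-transfer genes were therefore found on both sides. Of the 6, 0 passed the genotype test (limma adjusted p = 1.00 for each), against 1 of all 22746 probe sets (0.00440%), and nothing is read from that count.

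THI2.1 encodes a thionin, a small cysteine-rich peptide toxic to microbes, known in Arabidopsis for induction by jasmonate and for expression in flowers and siliques. It read 884, 1159 and 1019 in the 3 low arrays, and 3362, 2634, 3310.2 and 3751 in the 4 high arrays. The low arrays sat within 884 to 1159 and the high arrays within 2634 to 3751, a ratio of means of 3.20. Its relative THI2.2 ran the other way, at 46.9, 48.2 and 36.1 in the 3 low arrays, and 18.7, 7.26, 9.74 and 5.32 in the 4 high arrays. All of these signals lay below the array medians of 49.2 to 54.6, where background can be a larger share. Over 33 probe sets for small cysteine-rich and signalling peptides, 8 were higher in all 4 high arrays and 4 were higher in all 3 low arrays, against 14.8% and 8.55% of all probe sets naming 1 gene. The median ratio of means was 0.92, against 1.08. THI2.1, 1 of the 8, was chosen for that order. LCR69, a defensin-like gene and one of the 4, read 7597, 6919 and 8232 in the 3 low arrays, and 4149, 4952, 4639 and 3249 in the 4 high arrays. PDF2.1, a plant defensin gene, read 1641, 1501 and 1627 in the 3 low arrays, and 346, 594, 376 and 241 in the 4 high arrays. Of the 33, 0 passed the genotype test with limma, against 1 of all 22746 probe sets (0.00440%), and nothing is read from that count. THI2.1 had a log2 difference of 0.46 (standard error 0.62, limma adjusted p = 1.00), at 2009.9 ± 1184 over 4 wild-type arrays (SD) against 2693 ± 1467 over 3 myb5 arrays (SD).

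**Figure D2:**
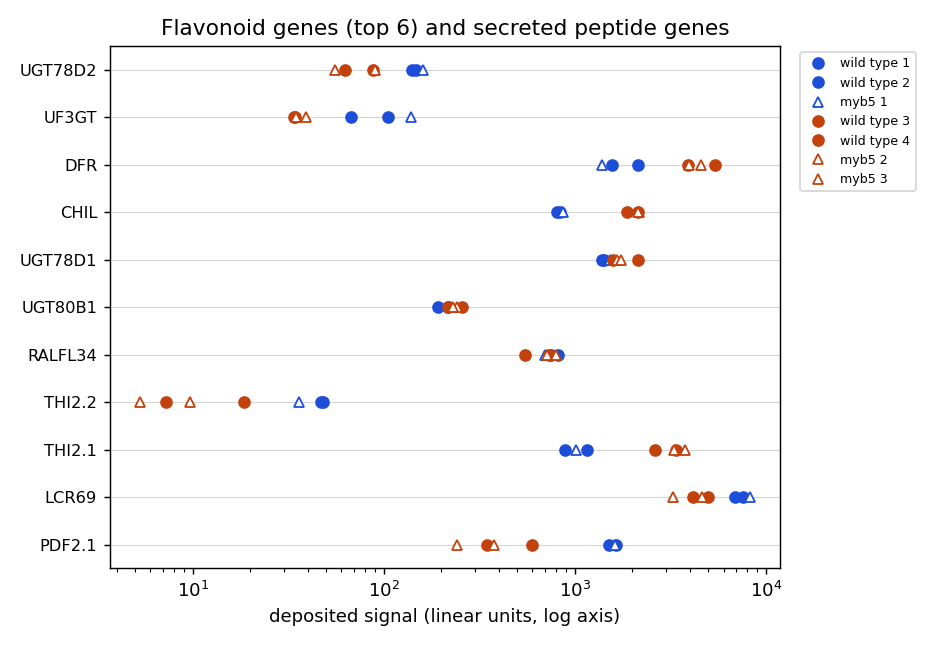
Deposited signal (linear units, logarithmic axis) in each of the 7 arrays for the 6 flavonoid genes and 5 secreted peptide genes, with circles for wild type, triangles for myb5, blue for the 3 low arrays and red-brown for the 4 high arrays. CHIL, DFR, UGT78D1 and THI2.1 are higher in every high array, UGT78D2, UF3GT, THI2.2, LCR69 and PDF2.1 in every low array, and UGT80B1 and RALFL34 overlap.

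The 4 largest separations were of genes named by locus tag. AT5G55320 read 76.5, 107 and 96.9 in the 3 low arrays, and 584, 421, 494 and 646 in the 4 high arrays, the largest ratio of the lowest high array to the highest low array, at 3.95. AT1G29660 read 220.0, 293 and 272 in the 3 low arrays, and 2067, 1102, 1618 and 1557 in the 4 high arrays, a ratio of 3.77. AT3G49270 read 104, 92.1 and 94.7 in the 3 low arrays, and 644, 334, 605 and 924 in the 4 high arrays, and its ratio of means, 6.46, was the largest of the 37 although wild-type replicate 4 lay far below the other high arrays. AT1G24030, the dimmest of the 4, read 34.0, 28.8 and 34.1 in the 3 low arrays, and 117, 113, 124 and 158 in the 4 high arrays, a ratio of 3.31. Dim probe sets such as this one can carry a larger share of background signal, and no detection call was used here.

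Besides AT1G29660, CHIL and THI2.1, another 8 probe sets had a signal of at least 1000 in every high array. AT2G17710 read 1044, 1084 and 1331 in the 3 low arrays, and 4047, 2882, 3350.2 and 2963 in the 4 high arrays. AT5G47350 read 711, 1278 and 1264 in the 3 low arrays, and 4579, 2618, 4828 and 5746 in the 4 high arrays, and its wild-type replicate 1 lay well below the other low arrays. AT4G24130 read 674, 881 and 1012 in the 3 low arrays, and 2307, 2107, 2154 and 2774 in the 4 high arrays. In each of these 3 the nearest arrays of the 2 sets were little more than 2-fold apart, while the means were 2.87, 4.10 and 2.73 times apart. AT5G51950 read 424, 599 and 466 in the 3 low arrays, and 2377, 1655, 2110.2 and 2181 in the 4 high arrays. AT2G23910 read 615, 432 and 711 in the 3 low arrays, and 1979.7, 1558, 1853 and 1896 in the 4 high arrays. AT2G14900 read 343, 514 and 472 in the 3 low arrays, and 1942, 1232, 1628 and 2013 in the 4 high arrays. In these 3, myb5 replicate 1 lay within the range of the wild-type low arrays for AT5G51950 and AT2G14900 and above both for AT2G23910. AT2G21430 read 382, 438 and 539 in the 3 low arrays, and 1726, 1309, 1471 and 1527 in the 4 high arrays. AT1G49800 read 413, 372 and 407 in the 3 low arrays, and 1640.0, 1366, 1071 and 1581 in the 4 high arrays, and unlike the others of this group its lowest high array was myb5 replicate 2.

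Among the members of middle signal, AT2G41990 read 288, 314 and 319 in the 3 low arrays, and 1084, 743, 1042 and 1019 in the 4 high arrays. AT1G06550 read 352, 371 and 435 in the 3 low arrays, and 1283, 898, 1029.8 and 1085 in the 4 high arrays. AT4G33550 read 72.3, 95.7 and 81.3 in the 3 low arrays, and 283, 247, 318 and 341 in the 4 high arrays. In the first pair wild-type replicate 4 was the lowest of the high arrays, and in AT4G33550 both myb5 arrays lay above both wild-type arrays. AT5G66590 read 105, 97.8 and 84.2 in the 3 low arrays, and 330.2, 254, 264 and 347 in the 4 high arrays. AT4G22050 read 122, 139 and 122 in the 3 low arrays, and 414, 292, 313 and 301 in the 4 high arrays. AT1G32740 read 97.6, 104 and 88.0 in the 3 low arrays, and 277, 247, 221 and 259 in the 4 high arrays. Their ratios of means, 3.12, 2.59 and 2.60, were below the median of the set. AT5G46040 read 51.9, 58.2 and 39.0 in the 3 low arrays, and 230.1, 149, 236 and 244 in the 4 high arrays. AT1G05320 read 39.3, 39.7 and 56.1 in the 3 low arrays, and 173, 158, 147 and 184 in the 4 high arrays. AT2G03980 read 108, 157 and 128 in the 3 low arrays, and 319, 371, 378 and 406 in the 4 high arrays, at the edge of the rule.

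**Figure D3:**
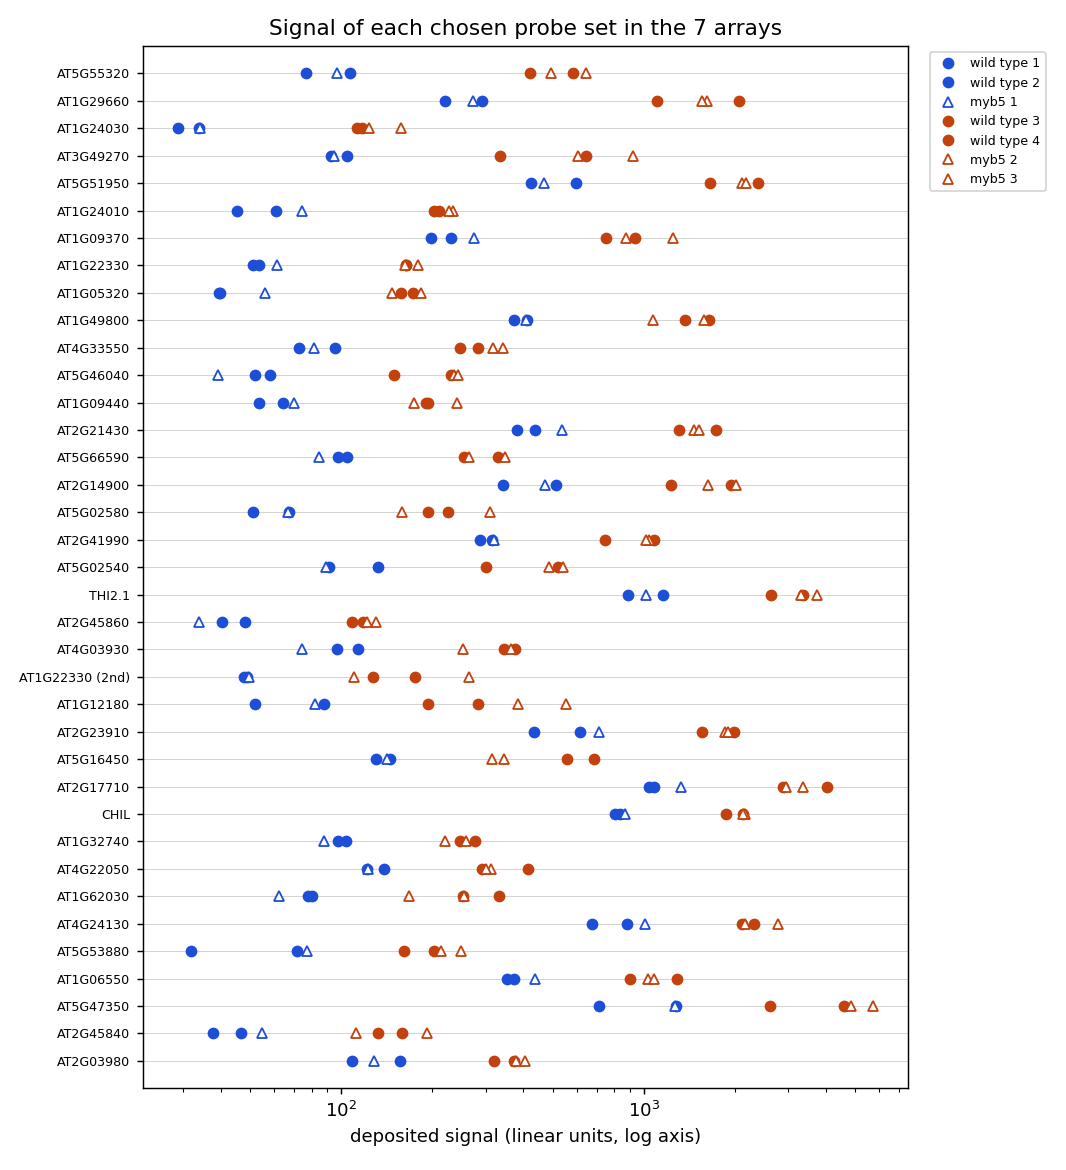
Deposited signal (linear units, logarithmic axis) of the 37 chosen probe sets in each array, ordered by the ratio of the lowest high array to the highest low array, with circles for wild type, triangles for myb5, blue for the 3 low arrays and red-brown for the 4 high arrays. The sets are apart in every row because the rule requires it; within the red-brown points wild-type replicate 4 is the lowest in 23 of 37 rows.

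The 4 high arrays were not alike within the set. Wild-type replicate 4 was the lowest of them for 23 of 37 probe sets (62.2%) and the highest for 0 of 37. Over the 7618 probe sets with a signal of at least 100 in all 4, this array was the lowest for 26.0% and the highest for 28.0%. Next came myb5 replicate 2, the lowest for 9 of 37 (24.3%, against 26.3%), and wild-type replicate 3, the lowest for 3 (8.11%, against 19.2%). The highest was myb5 replicate 3 for 20 of 37 (54.1%, against 26.4%) and wild-type replicate 3 for 13 of 37 (35.1%, against 22.6%). Relative to the mean of the 4 high arrays, the median probe set stood at 0.88 in wild-type replicate 4, 0.97 in myb5 replicate 2, 1.07 in wild-type replicate 3 and 1.11 in myb5 replicate 3. It stood at 0.28 and 0.29 in the low wild-type arrays and 0.30 in the low myb5 array. Among the 3 low arrays wild-type replicate 1 was the lowest for 21 of 37 (56.8%, against 30.5%). The rule leans on the lowest of the 4 and the highest of the 3, so which array takes those places is tied to the choice.

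Probe sets differed widely in how much they varied within the high arrays. The highest signal was at most 2.84 times the lowest, with a median of 1.44, against 1.33 over the 7618 brighter probe sets. Within the low arrays the corresponding values were 1.03 to 2.43, with a median of 1.33 against 1.26. The smallest range among the high arrays was that of 1 of 2 probe sets for AT1G22330, which read 53.4, 51.1 and 61.4 in the 3 low arrays, and 163, 164, 163 and 179 in the 4 high arrays. The other read 47.8, 48.7 and 49.4 in the 3 low arrays, and 127, 175, 110.0 and 264 in the 4 high arrays. Both probe sets passed the rule, at ratios of 2.65 and 2.23, but they disagreed on the order of the high arrays: the first was nearly level, and the second had myb5 replicate 3 at 2.40 times myb5 replicate 2. Among the widest ranges were AT1G12180 (2.84), AT3G49270 (2.76) and AT5G47350 (2.19), in which myb5 replicate 3 was the highest array and wild-type replicate 4 the lowest.

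The rule did not use the genotype labels, but it bears on the genotype test. Each genotype holds arrays of both sides, so every chosen probe set differs at least 2-fold within wild type and within myb5, and the standard error with genotype alone is large by construction. In that fit 0 of the 37 probe sets passed. The fit ran on all 22746 non-control probe sets with limma and Benjamini-Hochberg adjustment at 0.05, where 1 passed (0.00440%). At an unadjusted limma p under 0.05 there were also 0 of 37 (3.46% of all probe sets), and nothing is read from either count. The rule makes the genotypes overlap for all 37. On the quantile-normalized values, 2.18% of all probe sets had every myb5 array higher and 2.17% every myb5 array lower. The log2 differences, myb5 minus wild type, ran from -0.24 to 0.95 with a median of 0.37, against -0.00035 over all probe sets, and 34 of 37 were above 0, against 49.9%. Since 2 of 4 wild-type samples but 2 of 3 myb5 samples are on the high side, the genotype-only difference contains part of the split that chose the set. Leaving out single arrays moved the median widely. It was 0.95 when myb5 replicate 1 was dropped, 0.68 for wild-type replicate 3 and 0.60 for wild-type replicate 4. It was 0.076 and 0.14 when wild-type replicates 1 and 2 were left out, and 0.14 and 0.082 for myb5 replicates 2 and 3. The median standard error was 0.59, larger than the median difference.

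With the split as a term in the same fit, the median difference was 0.11 (-0.0037 over all probe sets), 29 of 37 were above 0 (49.0%), and 0 of 37 passed, against 1 of 22746 (0.00440%). At an unadjusted limma p under 0.05 there were 2 of 37 (5.4%), against 5.49% of all probe sets. The median standard error was 0.16 in this fit, and it is small by construction for transcripts chosen to separate along the split. Among the 4 high arrays alone, with 2 arrays of each genotype, 0 of 37 passed with limma and 2 of 37 had an unadjusted p under 0.05, against 0 of 22746 (0.00%) and 4.52%. The median difference was 0.14 there, and -0.0044 without wild-type replicate 4, so its direction rested on that array. On the quantile-normalized values, both myb5 arrays were above both wild-type arrays for 11 of 37 (29.7%, against 15.5%) and below for 1 of 37 (2.7%, against 16.2%). Wild-type replicate 4 was the lowest high array for 23 of 37 by deposited signal, a place tied to the choice. Nothing is therefore read from these counts, or from the 29 of 37 above 0 with the split as a term. CHIL and THI2.1 are among the 11, although their deposited signals overlap between the genotypes in the high arrays.

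The 1 probe set below was AT5G16450, at 145, 129.8 and 142 in the 3 low arrays, and 683, 555, 346 and 314 in the 4 high arrays. Its low arrays were level across genotypes, and its high arrays were 683 and 555 in wild type against 346 and 314 in myb5. The log2 difference was -0.87 among the 4 high arrays (standard error 0.18, limma adjusted p = 0.98), -0.51 with the split as a term (limma adjusted p = 0.91) and -0.24 with genotype alone (limma adjusted p = 1.00). AT1G12180 stood farthest in the other direction, at 51.8, 87.5 and 82.0 in the 3 low arrays, and 284, 194, 383 and 551 in the 4 high arrays. Its difference was 0.96 among the 4 high arrays (standard error 0.28, limma adjusted p = 0.98), 0.64 with the split as a term (limma adjusted p = 0.91) and 0.95 with genotype alone (limma adjusted p = 1.00). By genotype its signal was 154 ± 105 over 4 wild-type arrays (SD) against 339 ± 238 over 3 myb5 arrays (SD). Neither passed, and whether their genotype difference itself differed between the high and low arrays was not tested.

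By the smallest unadjusted p with genotype alone, the other members leading upwards were AT5G47350, AT5G53880, AT4G24130 and AT1G09370, with log2 differences of 0.88, 0.65, 0.52 and 0.65. AT5G53880 read 71.4, 31.8 and 77.3 in the 3 low arrays, and 161, 203, 214 and 248 in the 4 high arrays, with wild-type replicate 2 well below the other low arrays. The differences below 0 were those of AT5G16450, AT1G62030 and AT4G03930, the last 2 at -0.15 and -0.04. AT1G62030 read 77.3, 80.3 and 62.4 in the 3 low arrays, and 331, 252, 168 and 255 in the 4 high arrays. AT4G03930 read 113, 96.6 and 74.0 in the 3 low arrays, and 375, 345, 253 and 365 in the 4 high arrays. In both, the lowest array of each set was a myb5 array. None of these genes passed (limma adjusted p = 1.00), and their standard errors ran from 0.55 to 0.75.

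**Figure D4:**
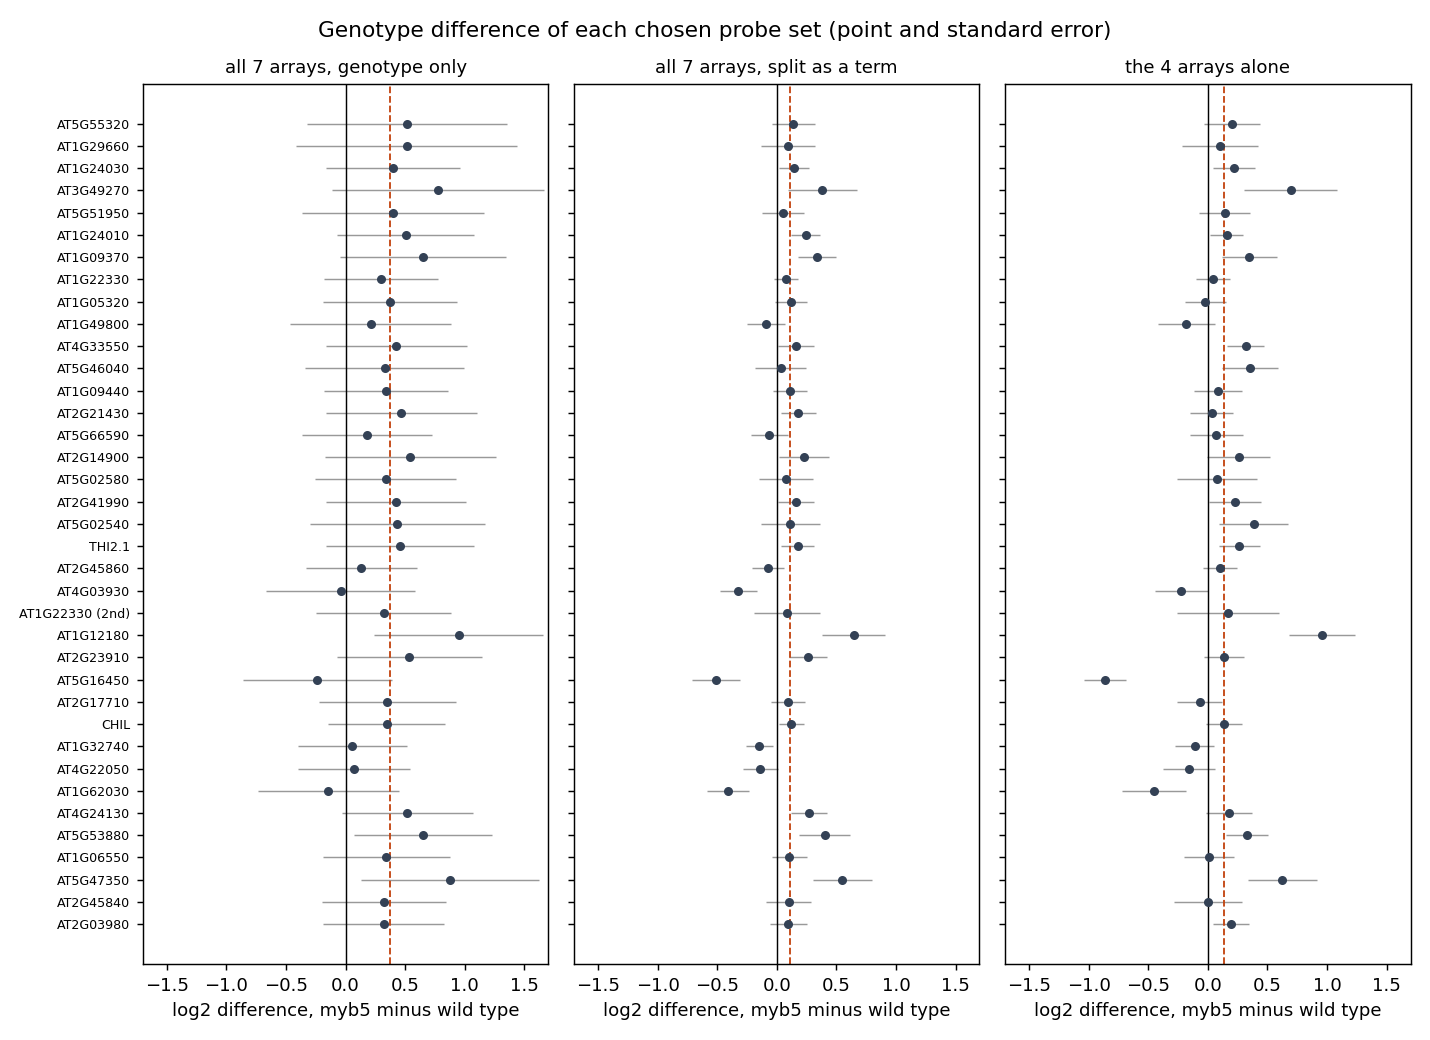
Log2 difference, myb5 minus wild type, of each chosen probe set with its limma standard error (bars) in 3 fits: genotype alone over all 7 arrays, genotype with the split as a term, and genotype among the 4 high arrays. Dashed lines mark the medians of 0.37, 0.11 and 0.14; AT1G12180 lies farthest right and AT5G16450 farthest left in each, and no difference passed the adjusted threshold.

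Several members are close to each other in the gene order of the TAIR10.1 annotation. Of the 36 genes, 8 form 4 pairs with at most 10 protein-coding genes between them. No share over all measured genes is given beside that count, and nothing is read from it. AT1G24010 and AT1G24030 on chromosome 1 are separated by 1 gene, which had no probe set naming it alone. AT1G24010 read 60.6, 45.2 and 74.4 in the 3 low arrays, and 211, 203, 234 and 228 in the 4 high arrays, and as for AT1G24030 wild-type replicate 4 was the lowest high array. AT2G45840 and AT2G45860 on chromosome 2 are also separated by 1 gene without such a probe set, and both were near the threshold of 100. AT2G45840 read 46.5, 37.7 and 54.8 in the 3 low arrays, and 158, 132, 192 and 112 in the 4 high arrays. AT2G45860 read 40.3, 48.2 and 33.8 in the 3 low arrays, and 108, 118, 130.5 and 122 in the 4 high arrays. In that pair myb5 replicate 2 was the highest array for both genes.

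AT5G02540 and AT5G02580 on chromosome 5 are separated by 3 genes, of which 2 were measured. AT5G02540 read 91.2, 132 and 88.7 in the 3 low arrays, and 519, 301, 485 and 539.8 in the 4 high arrays. AT5G02580 read 51.1, 67.4 and 66.8 in the 3 low arrays, and 193, 226, 159 and 309.7 in the 4 high arrays. Of the genes between them, AT5G02550 was higher in every high array, at 51.9, 69.2 and 58.2 in the 3 low arrays, and 124, 74.6, 107 and 133 in the 4 high arrays, and AT5G02570 overlapped between the sets, at 60.1, 72.6 and 53.0 in the 3 low arrays, and 48.0, 53.3, 43.4 and 127 in the 4 high arrays. AT1G09370 and AT1G09440 on chromosome 1 are separated by 7 genes, with 4 probe sets between. AT1G09370 read 197, 231 and 274 in the 3 low arrays, and 933, 748, 872 and 1247 in the 4 high arrays. AT1G09440 read 53.3, 64.4 and 69.8 in the 3 low arrays, and 194, 191, 174 and 242 in the 4 high arrays. Between them AT1G09390 was just higher in every high array, at a ratio of 1.01, ACLA-3 had a ratio of means of 1.00, and AT1G09400 and AT1G09410 stayed at 0.390 to 14.0 in all arrays. The measured genes between the members of these 2 pairs were therefore mixed, and AT1G09400 and AT1G09410 were dim. The other 2 pairs had no probe set between them, so their neighbourhoods are not known. Each chosen pair was also measured by different probe sets, and how alike their sequences are was not analysed here.

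By chromosome, the 37 probe sets were 14 on chromosome 1, 8 on 2, 1 on 3, 4 on 4 and 10 on 5. Chromosome 3 held 2.7% of them against 20.5% of the single-gene probe sets placed on chromosomes 1 to 5, with AT3G49270 as its only member, and chromosome 1 held 37.8% against 25.8%. None of the 37 has an identifier ending in _s_at or _x_at, the marks of probe sets that can bind several transcripts, against 2.09% of the probe sets naming 1 gene. These shares are descriptions of a set chosen from the data. Over all 22746 probe sets, unnamed ones included, 78 met the thresholds of the rule (0.343%), of which 39 are unnamed here and 2 name several genes. The reversed thresholds, with the 3 low arrays above the 4 high arrays, were met by 76 probe sets naming 1 gene (0.562%) and by 173 of all probe sets (0.761%). Under these thresholds the 37 are thus the smaller side of the split. By order alone the larger share went the other way: 14.8% of probe sets naming 1 gene were higher in all 4 high arrays and 8.55% in all 3 low arrays.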

How the data were processed

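RNA of developing seeds was measured on Affymetrix arrays, 1 array for each of 4 wild-type and 3 myb5 samples. The deposited values are linear signal intensities per probe set; the program behind them: not given in the sources used here. RNA was amplified through repeated rounds from an oligo(dT) primer, per the labels' protocols, which favours 3' ends. From the values, each array had been scaled to a mean of 150.01 after trimming 2% at each end. No detection call was used, and the number of arrays limits the precision.

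Gene names came from the array's annotation table, updated through a gene table: 13513 probe sets name 1 gene, 503 several and 8730 have no name in that table; 13436 of the single-gene ones matched the gene table. The rule was applied to deposited signals. For the genotype test, 64 control probe sets were left out, and log2(signal + 16) was quantile normalized and fitted with limma 3.58.1 in R 4.3.3 (lmFit, eBayes), with Benjamini-Hochberg adjustment over 22746 probe sets at 0.05. A difference on this scale understates changes of dim probe sets. The fit was tried on simulated data with independent noise and no split of the arrays, so that trial does not show how it behaves with the split.

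The members and 24 gene lists were chosen with earlier results of these data known; the lists were matched by symbol or synonym, and false matches (clone names, a chitinase called CHI, a gene called LCR) were then removed. Of the lists, 23 had a measured probe set and 2 held a member. As 35 of the 37 members are named by locus tag alone, such matching could mostly not place them. Nothing is therefore read from their absence from the other lists. Named genes were, by rule, the 25 largest ratios, up to 4 members of each list, the 5 smallest unadjusted genotype p-values in each direction (3 where fewer exist), probe sets next to a threshold and the 5 brightest members; the other members and genes were named after their values were seen. Alternatives covered the rule's thresholds, scaling, pseudocount, filter, eBayes settings, the replicate block, the split as a term and each array left out. A search for promoter motifs was planned and not run.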

Additional observations from a re-analysis of the deposited data

How the results depend on the processing

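A ratio of 1.5 gave 153 probe sets, including all 37, and a ratio of 3 gave 4, all of them among the 37. Lowest signals of 50 and 200 gave 46 and 25, and quantile-normalized signals gave 34, of which 33 were among the 37. Leaving out each array gave 38 to 65, each time including all 37, since fewer arrays have to separate; the largest were 65 when wild-type replicate 4 was dropped and 61 for myb5 replicate 1. Over all probe sets, 1 genotype call became 2 with the dimmest 50% left out, 0 with the replicate block, and 1 to 2 with each array left out, where the 2 were without myb5 replicate 1. Members called stayed at 0 in all alternatives run. Deviations from the genotype means correlated between samples of the same number at 0.63 (replicate 1), -0.30 (replicate 2) and 0.55 (replicate 3). The samples numbered 1 are both low arrays, those numbered 3 are both high arrays, and those numbered 2 lie on opposite sides. The signs follow that split, so the correlations cannot show whether the numbers pair the samples. The main fit used no pairing. With the block the members' median difference was 0.60, and 7 of 37 had an unadjusted limma p under 0.05, against 5.99% of all probe sets. In replicate 2 the wild-type array is a low array and the myb5 array a high array, so the rule itself makes that difference positive. Nothing is therefore read from the median or the count with the block. Of the members' differences, 5 changed sign with the split as a term, 3 with the block and 3 to 8 with each array left out; none was called. The low arrays hold a single myb5 sample, so a genotype difference within them has no replicate check.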

Other observations

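RALF-like genes were picked out after their values were seen. RALF-like peptides are small secreted peptides known for roles in cell growth and pollen tube reception. Of 11 measured probe sets, 6 were higher in all 4 high arrays and 0 were higher in all 3 low arrays, against 14.8% and 8.55% of the probe sets naming 1 gene. The secreted peptide genes described above include RALFL34, so these counts and those of the peptide list do not come from separate genes. The other 5 overlapped, and 1 of the 11 was under 20 in every array. RALFL22 read 78.6, 64.9 and 64.6 in the 3 low arrays, and 143, 125, 209 and 223 in the 4 high arrays. RALFL31 read 101, 87.1 and 95.0 in the 3 low arrays, and 141, 150.3, 155 and 187 in the 4 high arrays. RALFL28 read 21.1, 10.4 and 27.3 in the 3 low arrays, and 68.8, 56.8, 65.8 and 112 in the 4 high arrays, a ratio of 2.08 that missed the signal threshold of 100. The brightest of the family, RALFL34, overlapped between the sets, at 819, 750.3 and 698 in the 3 low arrays, and 734, 546, 716 and 797 in the 4 high arrays. RALFL26 was uneven within the high arrays, at 15.4 in myb5 replicate 2 and 419 in myb5 replicate 3.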
